A study of Mus musculus with 16 samples.

Results

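The HoxA cluster, the row of homeobox genes from Hoxa2 to Hoxa13 on mouse chromosome 6, was examined through every deposited peak that overlapped the mm9 window chr6:52110000-52215000. The window is 105 kb long, and the 24 peak lists held 98 such peaks of 289751 in all, 84 in the lists called against whole-cell extract and 14 in the difference lists. Hoxa2 lies at the low end of the window and Hoxa13 near its high end. The RefSeq gene table at hand was for another mouse build, so it was used for the order of the genes and not for their positions. In that order Hoxa2 is followed by Hoxa3, Hoxa4, Hoxa5, Hoxa6, Hoxa7, Hoxa9, the microRNA gene Mir196b, Hoxa10, Hoxa11 and Hoxa13, with the non-coding gene Hottip and the homeobox gene Evx1 after the row. The 10 Hoxa members are therefore described by their order and by the ends of the window, and no single peak between the ends was assigned to a gene.

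The cells were immortalized murine mesenchymal stem cell lines, adult stromal cells, of the C57BL/6 strain, each grown from a single clone. Lines of genotype Dicer f/f, in which the Dicer gene is flanked by recombination sites but intact, are called WT here, and lines of genotype Dicer -/-, which lack the enzyme that cuts microRNA precursors, are called KO. The libraries were chromatin immunoprecipitates of 3 histone marks, with 2 replicates per mark and genotype, which made 12 libraries. The antibodies were from Abcam for H3K27me3 and H3K36me3 and from Millipore for H3K4me3, and the 4 whole-cell extract samples had no lists of their own. The labels did not say whether the replicates were separate clones or cultures, so p-values measure only the spread between these libraries, and a difference between clones and a difference between genotypes cannot be told apart. The cell type markers and the Dicer locus were not analysed here, because they could not be placed on mm9. Genome-wide, the lists against extract held 12744 to 23851 peaks for H3K4me3 and 33417 to 38683 for H3K36me3. For H3K27me3 they held 706 and 17516 peaks in KO and 2562 and 14955 in WT, so replicate 1 of either genotype was a short list. Peak lists carry no read counts, and the depth of the libraries was unknown.

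Hox genes code for transcription factors that give cells their position along the body axis. Genes at the Hoxa2 end of the cluster act towards the head, and those at the Hoxa13 end act in the hind trunk, the distal limb and the urogenital tract. Fibroblasts and other stromal cells of the adult keep much of the Hox pattern of the place they came from. Hoxa2 patterns the second pharyngeal arch, Hoxa3 is needed for the thymus and parathyroid glands, and Hoxa4 to Hoxa7 act in the neck and trunk, Hoxa5 also in the lung. Hoxa9 is active in blood progenitors, Hoxa10 and Hoxa11 act in the limb and the uterus, and Hoxa13 acts in the digits and the genital tract. The pattern is held by opposing chromatin systems. Trithorax-group enzymes place H3K4me3 at promoters in use or ready for use, H3K36me3 is laid down over gene bodies by the elongating polymerase's partners, and Polycomb repressive complex 2 places H3K27me3 over silent genes. A Hox cluster in one cell type is often split by a sharp border, with the active marks on one side and H3K27me3 on the other.

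Mature microRNAs need Dicer, and the cluster holds a microRNA gene of its own, Mir196b, between Hoxa9 and Hoxa10. Members of the miR-196 family are known to act on Hox messenger RNAs, and the let-7 family is the subject named in the title of the series. The mature sequences of miR-196b and let-7a are shown because these are molecules of the locus and of the study that need the deleted enzyme. The sequence of miR-196a, of the same family as miR-196b but without a gene in this row, is shown for comparison. All are from RefSeq (GRCm38.p6), written 5′ to 3′, with the seed, bases 2 to 8, in capitals.
miR-196b-5p: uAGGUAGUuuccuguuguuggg
miR-196a-5p: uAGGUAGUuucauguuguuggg
let-7a-5p: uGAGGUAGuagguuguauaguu
The miR-196 pair share the seed AGGUAGU and differ by a single substitution, A12C, counted from the 5′ end of miR-196a-5p. The 8 let-7 miRNAs in the table share the seed GAGGUAG. The seeds of miR-196 and let-7 have the 6 bases AGGUAG in common, shifted by a single position. The lists hold no RNA measurement, so the level of these miRNAs in the lines was not analysed here.

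The promoters of the end genes are shown because H3K27me3 was listed at the Hoxa13 end and not at the Hoxa2 end. RefSeq (GRCm38.p6) had promoter sequences for 9 of the 10 members, all on the minus strand. Each line gives the 250 bases before the start of the gene, 5′ to 3′ on that strand, with every CG in capitals. CG reads the same on both strands, and 92.1% of the 32851 promoters in the table hold at least 1.
Hoxa2: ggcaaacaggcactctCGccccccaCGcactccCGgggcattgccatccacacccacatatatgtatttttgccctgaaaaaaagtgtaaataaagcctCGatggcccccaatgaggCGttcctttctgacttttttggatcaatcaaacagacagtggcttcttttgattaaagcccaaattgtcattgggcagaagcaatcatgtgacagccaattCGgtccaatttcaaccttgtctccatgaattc
Hoxa13: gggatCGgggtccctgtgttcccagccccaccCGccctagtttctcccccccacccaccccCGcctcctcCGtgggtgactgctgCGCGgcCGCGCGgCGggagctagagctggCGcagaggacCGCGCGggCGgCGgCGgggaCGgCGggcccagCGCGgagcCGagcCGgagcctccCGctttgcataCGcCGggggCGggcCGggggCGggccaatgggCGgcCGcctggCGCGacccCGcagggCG
The Hoxa13 stretch held 35 CG, the highest number among the member promoters, and 2.97% of all promoters held at least as many. The Hoxa2 stretch held 6, the median of all promoters. The other member promoters ranged from 3 at Hoxa9 to 28 at Hoxa5, with 18 at Hoxa3, 24 at Hoxa6 and 7 at Hoxa7. Nearest to Hoxa13 in the row, the Hoxa10 promoters held 7 and 20 and the Hoxa11 promoter 13. Counts well above the median of all promoters were thus not confined to the Hoxa13 end. These counts describe the sequence only, and the promoters were not placed on the mm9 peaks.

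H3K27me3 was listed at the Hoxa13 end of the cluster in both KO libraries, at 1 small peak in a single WT library, and nowhere else in the window. KO replicate 1 had 3 peaks that lay side by side from 52203686 to 52209812 and covered 6.03 kb. KO replicate 2 had peaks at chr6:52202730-52210525 and chr6:52210738-52220829, which covered 12.1 kb of the window and ran past its end. WT replicate 1 had no peak in the window. WT replicate 2 had a single peak, chr6:52207716-52208881, of 1.17 kb. Both KO libraries were thus above both WT libraries and the groups did not overlap. The remaining 92.7 kb of the window, from the Hoxa2 end up to 52202729, held no H3K27me3 peak in any of the 4 libraries.

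**Figure D1:**
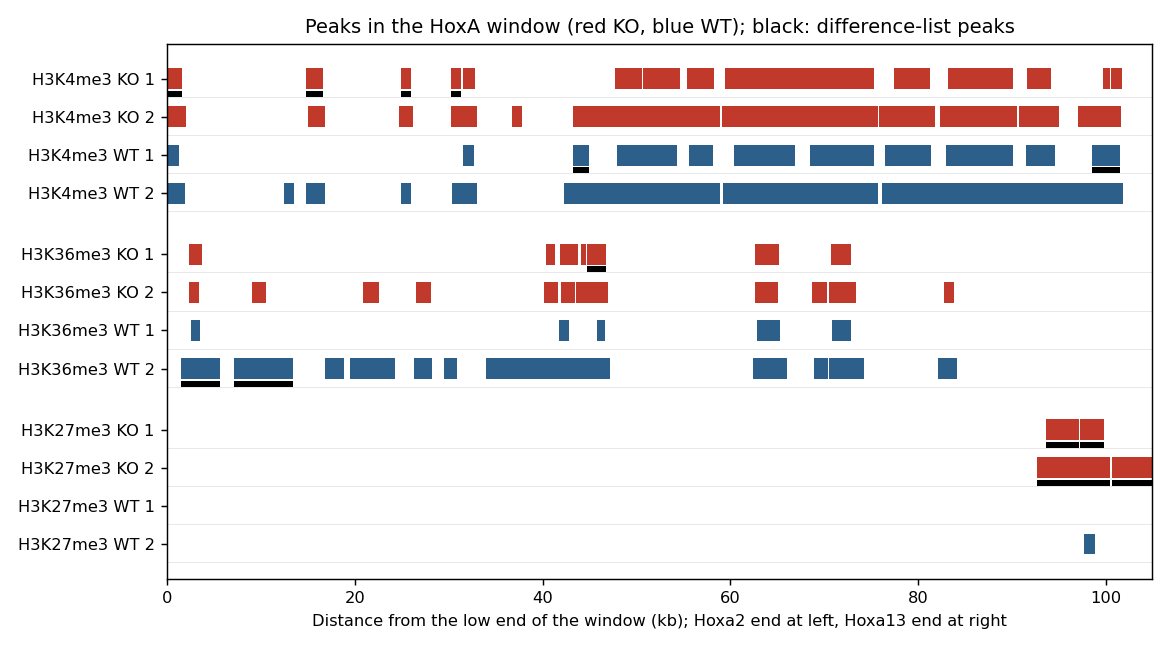
Peaks against whole-cell extract in the 12 libraries along the window, with distance from its low end in kb on the horizontal axis and 1 row per library (mark, genotype, replicate); red is KO, blue is WT, and thin black bars are peaks of the library's difference list. H3K27me3 lies only at the right, over 6.03 and 12.1 kb in KO against 0 and 1.17 kb in WT. H3K4me3 is listed along the right part of the window in all 4 libraries, but replicate 1 of either genotype is mostly bare from 95 to 100 kb.

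The mean covered length of H3K27me3 was 9.04 ± 4.26 kb in KO and 0.583 ± 0.824 kb in WT (SD, n = 2 each). The difference of 8.46 kb had an exact two-sided permutation p = 0.333, the smallest that 2 against 2 libraries allow. Without KO replicate 2 the difference was 5.45 kb. Genome-wide the WT peaks covered the greater length within each replicate number, without a test, since H3K27me3 peaks covered 0.737 and 34.4 Mb in KO and 4.68 and 38.0 Mb in WT. The window held 0.819% of the covered length of KO replicate 1 and 0.0350% of that of KO replicate 2, against 0% and 0.00307% in WT.

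Each peak carries a score from the authors' peak caller, which ranks peaks only within a list. In KO replicate 2 the peaks at the Hoxa13 end both had the score 3100, at the percentile 99.9 of that list, ties counted at their middle rank. In KO replicate 1 the scores were 227, 190 and 389, at percentiles 90.7, 86.6 and 97.9. The WT replicate 2 peak had a score of 151, at percentile 37.7. One of the KO replicate 2 peaks, chr6:52210738-52220829, ran past the window, and in its part beyond the window WT replicate 2 had a peak with a score of 632. The lists differed in length, so the ranks were not compared between genotypes.

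A difference list, deposited for each library, was read here as the peaks of that library against the other genotype. The labels do not name the control, and the direction of each call rests on this reading. Each of the 14 difference peaks in the window matched, in start and end, a peak that its own library also had against extract. To count calls, the peaks of the 4 lists of a mark were merged into regions, and a region was called KO-higher or WT-higher where it met a difference peak of that genotype.

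The window held 2 H3K27me3 regions, and 1 of them, chr6:52202730-52210525, was KO-higher in both replicates. Over the genome 0.171% of the 24016 H3K27me3 regions were KO-higher in both replicates, 0.404% in replicate 1 and 13.6% in replicate 2. The difference peaks covered 6029 bp of the region in KO replicate 1 and all 7796 bp in KO replicate 2. The region has the bounds of the KO replicate 2 peak, so full cover in that library follows from how the region was made. Their highest scores, 768 and 2389, stood at percentiles 99.6 and 99.9 of the difference lists. The neighbouring region, chr6:52210738-52220829, was KO-higher in replicate 2 and had no H3K27me3 peak in KO replicate 1. Its bounds are likewise those of a KO replicate 2 peak, which thus covered all 10.1 kb. WT replicate 2 covered 3.10 kb of this region, in its part beyond the window. Neither region was WT-higher in any replicate, against 4.03% of regions in replicate 1, 21.0% in replicate 2 and 3.76% in both over the genome.

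Beyond the Hoxa13 end, towards Evx1, the covered length of H3K27me3 did not separate the genotypes, and 1 region was called WT-higher in both replicates. In the adjoining 105 kb H3K27me3 covered 0 and 24.0 kb in KO against 5.54 and 20.05 kb in WT, so the groups overlapped. KO replicate 2 had a difference peak within this stretch, chr6:52224944-52228480, of 3.54 kb with a score of 701. No WT library listed H3K27me3 over that peak. Its region was KO-higher in replicate 2 (13.6% over the genome) and not in replicate 1. Farther on, WT replicate 2 had a single peak of 15.5 kb, chr6:52258892-52274373, with the score 3100. WT replicate 1 had 3 peaks within the same stretch, between 52262234 and 52273319, and KO replicate 2 had 4 that overlapped it, the highest at a score of 802. KO replicate 1 had none. Of these, the WT replicate 2 peak and 2 of the WT replicate 1 peaks were also in their WT difference lists. By the rule above, the region that holds them was therefore WT-higher in both replicates, as were 3.76% of H3K27me3 regions over the genome. Each WT list thus held H3K27me3 peaks in the 105 kb beyond, while KO replicate 1 had its 3 peaks at the Hoxa13 end and none beyond. Whether the short lists would have held a weaker peak at either place was not tested.

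**Figure D2:**
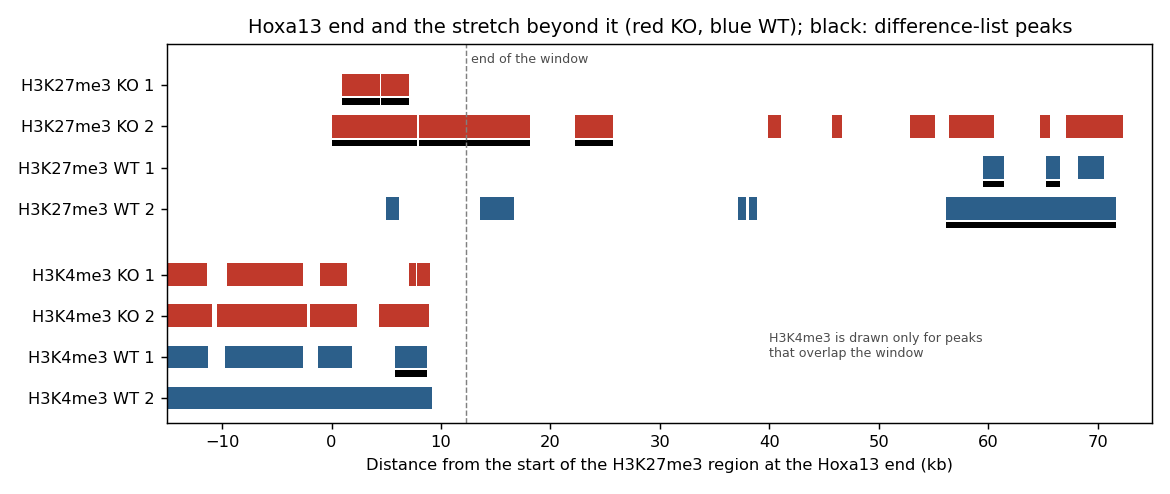
The Hoxa13 end and the stretch beyond it, as distance in kb from the start of the KO-higher H3K27me3 region; red bars are KO peaks, blue bars WT peaks, thin black bars difference peaks, and the dashed line is the end of the window. The KO libraries cover 6.03 and 7.80 kb of the region at 0, the WT libraries 0 and 1.17 kb, and the 15.5 kb WT replicate 2 peak lies far to the right.

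H3K4me3 was listed in all 4 libraries along the part of the cluster that leads up to Hoxa13, but not evenly. From 95 to 100 kb into the window it covered 4.40% and 60.3% in KO against 28.8% and 100% in WT, so replicate 1 of either genotype was mostly bare there. It covered 47.5 and 64.4 kb of the window in KO and 44.6 and 67.7 kb in WT. The means were 56.0 ± 11.9 kb in KO and 56.1 ± 16.4 kb in WT (SD, n = 2 each), a difference of -0.17 kb with an exact two-sided permutation p = 1. The replicates differed more than the genotypes, with replicate 2 the longer in each, as it was over the whole genome (52.7 against 32.3 Mb in KO and 44.1 against 25.1 Mb in WT). The sign of the difference rested on single libraries: it was 8.26 kb without KO replicate 1, 11.4 kb without WT replicate 2, -8.60 kb without KO replicate 2 and -11.8 kb without WT replicate 1.

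**Figure D3:**
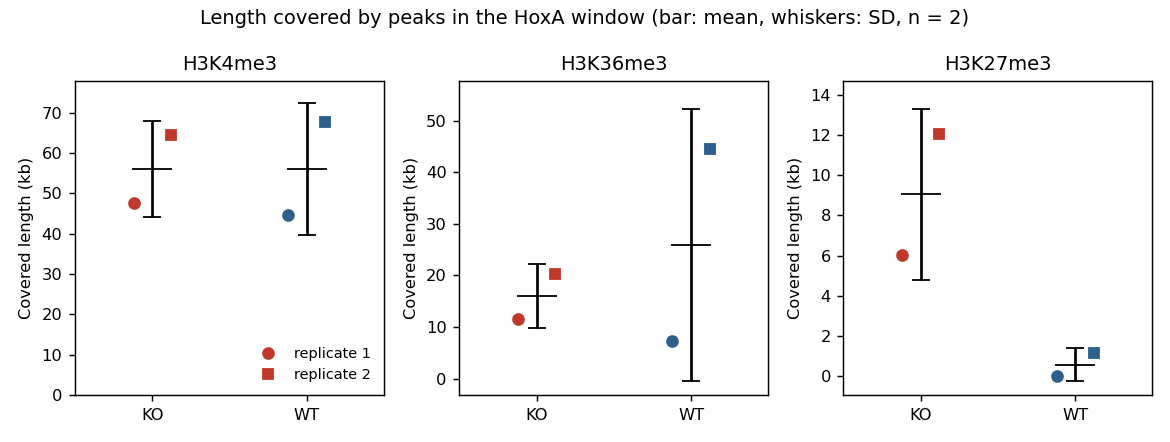
Length of the window covered by peaks of each mark, in kb; circles are replicate 1, squares replicate 2, the horizontal bar is the mean and the whiskers the SD of 2 libraries. The H3K27me3 values of KO (6.03 and 12.1 kb) lie above those of WT (0 and 1.17 kb), while the H3K4me3 and H3K36me3 values of the genotypes overlap.

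The peaks formed 9 H3K4me3 regions, of which 5 were listed in all 4 libraries (44.0% of regions over the genome). Merged over the 4 libraries, the 3 widest followed each other without a wide gap from 52152231 to 52211905, the high part of the window that ends near Hoxa13. The first of these, chr6:52152231-52168868, was covered over 9.62 and 15.6 kb in KO against 10.6 and 16.6 kb in WT. The next, chr6:52169081-52185775, was covered over 15.9 and 16.6 kb in KO against 13.4 and 16.6 kb in WT. The last, chr6:52185836-52211905, was covered over 15.1 and 23.1 kb in KO against 18.1 and 25.7 kb in WT. In the last region the WT library was the longer within each replicate number, but KO replicate 2 was above WT replicate 1. Many of these peaks stood at the score 3100, in 7 of 14 and 9 of 11 cases in KO and 6 of 11 and 6 of 8 in WT, so the score could not order them.

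Towards Hoxa2 the window carried narrow and scattered H3K4me3 peaks. The region at its very edge, chr6:52107117-52111943, was listed in all 4 libraries over 4.15 and 4.66 kb in KO against 3.43 and 4.78 kb in WT. Farther in, chr6:52124747-52126846 was covered over 1.83 and 1.90 kb in KO against 0 and 2.04 kb in WT, and chr6:52134693-52136161 over 1.07 and 1.47 kb in KO against 0 and 1.10 kb in WT. Both were missing from WT replicate 1 alone. The region chr6:52140275-52143031 was listed in every library, with the shortest value, 1.18 kb, in WT replicate 1 and 2.41 to 2.74 kb in the others. The remaining 2 regions, chr6:52122482-52123466 and chr6:52146785-52147823, were each listed in a single library, WT replicate 2 and KO replicate 2.

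No H3K4me3 region of the window was called in both replicates. In replicate 1, 4 of the 9 regions were KO-higher, against 20.7% over the genome, and in replicate 2 none was, against 23.8%. All 4 lay towards Hoxa2, and 2 of them had no peak in WT replicate 1. In replicate 1, 2 regions were WT-higher, against 7.19% over the genome, through the peaks chr6:52153265-52154944 and chr6:52208559-52211495. The latter lies at the Hoxa13 end, partly inside the KO-higher H3K27me3 region. In replicate 2 no region was WT-higher, against 5.07%. For both replicates the shares over the genome were 10.8% KO-higher and 1.12% WT-higher.

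At the Hoxa13 end the bases listed for both H3K4me3 and H3K27me3 were mostly those of replicate 2, with 6.74 kb in KO and 1.17 kb in WT. In replicate 1 they came to 0.532 and 0 kb. The KO-higher H3K27me3 region has the bounds of the KO replicate 2 peak. H3K4me3 inside it thus need not overlap H3K27me3 of the same genotype and replicate. Inside the KO-higher H3K27me3 region of 7.80 kb, H3K4me3 covered 2.11 and 5.81 kb in KO against 3.84 and 7.80 kb in WT. Within each replicate number the WT library was the longer, but KO replicate 2 was above WT replicate 1 and the groups overlapped. The means were 3.96 and 5.82 kb, a difference of -1.86 kb with an exact two-sided permutation p = 0.667 (n = 2 each). The difference was 0.118 kb without WT replicate 2, -0.01 kb without KO replicate 1, -3.71 kb without KO replicate 2 and -3.84 kb without WT replicate 1. In the bin from 95 to 100 kb into the window, H3K4me3 covered 4.40% and 60.3% in KO and 28.8% and 100% in WT, and H3K27me3 covered 94.3% and 100% in KO and 0% and 23.3% in WT.

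The bases listed for both marks in the same genotype and replicate came to 0.532 and 6.74 kb in KO against 0 and 1.17 kb in WT. This was 8.82% and 55.9% of the H3K27me3 length of the window in KO, and all of the H3K27me3 length in WT replicate 2. Lists from whole cultures cannot tell whether both marks sat on the same chromosomes or on different cells. In all 4 libraries the last H3K4me3 peak ended at nearly the same base, 52211735 and 52211671 in KO and 52211495 and 52211905 in WT. The upper edge of H3K4me3 thus lay within less than a kilobase in the 4 libraries. The covered length over the KO-higher H3K27me3 region differed by several kilobases for either mark. It ran from 2.11 to 7.80 kb for H3K4me3 and from 0 to 7.80 kb for H3K27me3. The region was picked by its H3K27me3 calls, so the H3K27me3 range follows in part from that choice.

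H3K36me3, the mark of transcribed gene bodies, was listed as separate peaks from the Hoxa2 end up to 52194132 at most and never at the Hoxa13 end. It covered 11.6 and 20.3 kb of the window in KO and 7.21 and 44.5 kb in WT. The means were 15.97 ± 6.19 kb and 25.9 ± 26.4 kb (SD, n = 2 each), a difference of -9.91 kb with an exact two-sided permutation p = 1. The sign turned without WT replicate 2, where the difference was 8.75 kb. Without WT replicate 1 it was -28.6 kb and without KO replicate 1 -5.53 kb. WT replicate 2 also covered the most length genome-wide, 176.8 Mb against 87.1 to 110.3 Mb in the others. Inside the window H3K36me3 did not meet H3K27me3 in any library.

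Of the 11 H3K36me3 regions, 4 were listed in every library (28.3% of regions over the genome). The first, chr6:52111452-52115575 at the Hoxa2 end, was covered over 1.41 and 1.12 kb in KO against 0.895 and 4.12 kb in WT. The second, chr6:52144017-52157218, reached into the start of the broad H3K4me3 stretch and was covered over 5.51 and 6.32 kb in KO against 1.96 and 13.2 kb in WT. The others lay inside that stretch. They were chr6:52172387-52176013, with 2.57 and 2.45 kb in KO against 2.36 and 3.63 kb in WT, and chr6:52180516-52184301, with 2.11 and 2.88 kb in KO against 2.002 and 3.79 kb in WT.

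The other 7 regions were absent from replicate 1 of both genotypes. Of these, 5 were listed in replicate 2 of both. They were chr6:52117098-52123378, with 1.54 kb in KO and 6.28 kb in WT, chr6:52129523-52134240, with 1.69 and 4.72 kb, chr6:52136247-52138187, with 1.55 and 1.94 kb, chr6:52178672-52180437, with 1.69 and 1.46 kb, and chr6:52192176-52194132, with 1.10 and 1.96 kb. The WT library was thus the longer at 4 of the 5, as it was over the whole genome, with 176.8 Mb against 110.3 Mb in KO replicate 2. The share over all such regions of the genome was not computed. The remaining 2, chr6:52126788-52128812 and chr6:52139486-52140908, were listed in WT replicate 2 alone. The last H3K36me3 peak ended at 52182854 and 52182838 in replicate 1 of KO and WT and at 52193825 and 52194132 in replicate 2. The upper end of H3K36me3 thus followed the replicate number and not the genotype. No H3K36me3 region was called in both replicates, against 0.668% KO-higher and 1.24% WT-higher over the genome. In replicate 1, 1 region was KO-higher (4.23% over the genome), through the peak chr6:52154683-52156794, and none was WT-higher (5.76%). In replicate 2, none was KO-higher (2.31%), and 2 were WT-higher (8.42%), chr6:52111452-52115575 and chr6:52117098-52123378 at the Hoxa2 end.

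The border between the marks was placed, for each genotype and replicate, at the split that left the fewest bases of H3K27me3 and of the other mark on the wrong side. H3K27me3 lay on the high, Hoxa13 side wherever it was listed. Against H3K4me3 the border fell between 52203686 and 52204185 in KO replicate 1, where any position in that overlap of the marks was as good as another. In KO replicate 2 it fell between 52202730 and 52205066. The midpoints, 52203935 and 52203897, were less than 0.1 kb apart. The split was not clean: 2323 and 6955 bp lay on the wrong side, since H3K4me3 was also listed above the border. In KO replicate 2 this H3K4me3 lay largely within H3K27me3. In KO replicate 1 the marks shared only 0.532 kb. Its last H3K4me3 peaks began at 52209781, close to the upper end of H3K27me3 at 52209812, so H3K4me3 lay on either side of H3K27me3 there.

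In WT no border of this kind was found. WT replicate 1 had no H3K27me3 peak. In WT replicate 2 the only H3K27me3 peak lay wholly inside an H3K4me3 peak of 25.7 kb, and the best split was anywhere above the end of that H3K4me3 peak, from 52211906 to 52215000, with 0% of H3K27me3 on its own side. The permutation test planned for this border was therefore void and its p is not given. When the border was instead put midway between the facing outermost edges of the marks, it lay at 52207710 and 52207200 in KO and 52209810 in WT replicate 2, a KO mean at -2.36 kb relative to that single library. With the midpoint of the split the same distance would be -9.54 kb, so it depended on the rule. The lowest start of H3K27me3, which needs no second mark, was 52203686 and 52202730 in KO and 52207716 in WT replicate 2.

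Against H3K36me3 the border was a gap in which neither mark was listed, with no base on the wrong side. It ran from 52182855 to 52203685 in KO replicate 1, a gap of 20.8 kb, and from 52193826 to 52202729 in KO replicate 2, a gap of 8.90 kb. In WT replicate 2 it ran from 52194133 to 52207715, a gap of 13.6 kb, and in WT replicate 1 there was none for lack of H3K27me3. The midpoints were 52193269 and 52198277 in KO and 52200923 in WT replicate 2. The KO mean was at -5.15 kb relative to the single WT value, and at -2.65 kb without KO replicate 1. The planned exact two-sided permutation test gave p = 0.667, but 2 values against 1 cannot give less than 0.333, so it could not tell the genotypes apart. H3K4me3 lay across this gap, over 73.5% and 96.9% of it in KO and 100% in WT replicate 2.

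**Figure D4:**
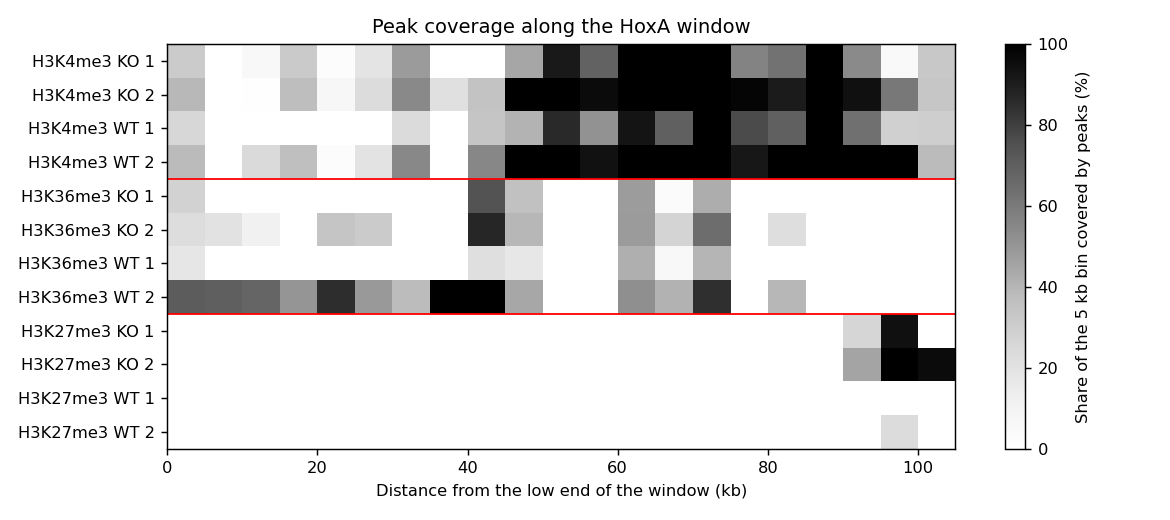
Share of each 5 kb bin covered by peaks, from white (0%) to black (100%), along the window in kb from its low end, with 1 row per library and red lines between the marks. H3K4me3 darkens much of the right part in all 4 libraries, with a paler bin from 95 to 100 kb in replicate 1, H3K36me3 stays left of it or within it, and H3K27me3 appears in the last 3 bins, most strongly in KO.

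The same comparison was made in 21 bins of 5 kb. H3K27me3 was listed in any library in 3 bins, and in 2 of these, from 90 to 100 kb into the window, both KO libraries were covered more than both WT libraries (0.604% of bins that carried the mark anywhere over the genome). The reverse occurred in 0 bins (4.24%). H3K4me3 was listed in 20 bins, in 14 of them in all 4 libraries (44.9% over the genome). No H3K4me3 bin separated the genotypes, against 13.2% with KO above WT and 1.05% with WT above KO over the genome. H3K36me3 was listed in 14 bins, in 6 of them in all 4 libraries (45.4%), and again 0 bins separated the genotypes, against 2.25% and 27.3%. The only bins of the cluster in which the genotypes did not overlap were thus those of H3K27me3 at the Hoxa13 end.

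The active marks were scarcer beyond the Hoxa13 end of the window. In the 105 kb beyond the Hoxa13 end, H3K4me3 covered 0 and 0.911 kb in KO against 0 and 1.05 kb in WT, and H3K36me3 had no peak in any library. The window thus held more of both active marks than this stretch of the same length, in every library. The stretch before the Hoxa2 end was not compared.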

How the data were processed

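Histone ChIP-seq peak lists of 12 libraries were used, in groups of 1 mark and 1 genotype, with replicate numbers from their titles. Bowtie 0.12.7, the build mm9 and MACS, without a version, are named in the submitters' processing notes. The authors deposited 2 lists per library, called per library, with the start, the end and a score of each peak. The score's formula is not stated, and the score was used only to rank or filter peaks within a list. Covered length is the union of peaks inside the window, computed with Python 3.11.15. Regions were merged where peaks of the 4 lists overlapped or touched, on chromosomes 1 to 19 and X, and a difference peak called a region with an overlap of at least 1 bp. Lengths and borders were compared over libraries with exact two-sided permutation tests, of which the one for the H3K4me3 border was void. Every region of each mark in the window is named. A threshold-called list grows with depth and enrichment, which were unknown. The code was tested on simulated intervals. The members, lists and tests were chosen with earlier results of these data known. The planned marker and regulator lists needed an mm9 annotation and were not used here.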

Additional observations from a re-analysis of the deposited data

How the results depend on the processing

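No difference in covered length changed its sign with scores of at least 160 or with whole peak lengths. Whole lengths could not move the H3K36me3 difference, since no H3K36me3 peak crossed an end of the window. With scores of at least 160 no WT library had an H3K27me3 peak in the window, so neither border could be compared. The score limit, an overlap of at least 50% of the region and merging over gaps up to 1 kb changed none of the counts of regions called in both replicates. Pairing the libraries by replicate number (replicate block) cannot move a difference of means when every pair is complete. The KO minus WT differences thus stayed at -0.17 kb for H3K4me3, -9.91 kb for H3K36me3 and 8.46 kb for H3K27me3. The last had an exact sign-flip p = 0.5, the smallest that 2 pairs allow. No paired analysis was possible for the borders, because WT replicate 1 had none. Leaving out 1 library, the differences ran from -11.8 to 11.4 kb for H3K4me3, from -28.6 to 8.75 kb for H3K36me3 and from 5.45 to 11.5 kb for H3K27me3. They ran from -3.84 to 0.118 kb for H3K4me3 inside the KO-higher region, a comparison added after seeing the data. The H3K4me3 border distance ran from -9.56 to -9.52 kb, but rests on a WT library with 0% of H3K27me3 on its own side of the split, and the outermost edges gave -2.36 kb. The H3K36me3 distance ran from -7.65 to -2.65 kb, against a single WT value. With a single replicate, regions called ran from 0 to 4 (H3K4me3, KO-higher), 0 to 2 (H3K4me3, WT-higher), 0 to 1 (H3K36me3, KO-higher), 0 to 2 (H3K36me3, WT-higher), 1 to 2 (H3K27me3, KO-higher) and 0 to 0 (H3K27me3, WT-higher). The cause of these shifts was not tested, and with 2 libraries per group no p could fall below 0.333.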
